A study of Mus musculus with 6 samples.

Results

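The mitosis and spindle genes are 44 genes whose products drive entry into mitosis, build the spindle, hold chromosomes to it, watch over their attachment and split the cell. They were chosen by the gene name printed beside each probe on the array, and the probe with the highest mean signal stood for each gene. All 44 were found among 36028 genes with a usable probe. The test covered 24648 genes, those whose probe stood well above background on each array of some group, and they held 43 of the mitosis and spindle genes, each well above background on all 6 arrays. Cenpf, a kinetochore protein, was well above background on 1 of the arrays at 24 h and 1 of those at 48 h, and was not tested.

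The arrays, each hybridized in a single color, held RNA of N18-Fms cells, 2 of unstimulated cells, 2 of cells given recombinant murine CSF-1 (100 ng/mL) for 24 h and 2 of cells given it for 48 h. N18 is a luciferase-expressing, neomycin-resistant subclone of TRAMP C2H, itself a clonal line from a prostate tumor of a transgenic mouse, and N18-Fms was made from it by retroviral transfer of murine c-fms, which encodes the CSF-1 receptor, and repeated sorting for the receptor. All 3 groups therefore come from 1 clone, carry the added receptor and secrete CSF-1 of their own, and the culture medium held serum and dihydrotestosterone. The hours are those of the sample labels, since the methods text gives shorter ones, and the methods place the replicates in separate experiments. The same unstimulated arrays serve for 24 h and 48 h and are labelled with no hours. Exposure to CSF-1 and time in culture therefore cannot be told apart in any of the comparisons.

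Mitosis is run by Cdk1 bound to a B-type or A-type cyclin, released by the Cdc25 phosphatases and reinforced by the Polo and Aurora kinases. Most genes of this program are transcribed late in the cell cycle, when B-Myb and FoxM1 replace the repressive DREAM complex on promoters that carry a cell cycle genes homology region (CHR) and CCAAT boxes. Their mRNA is low in cells that are not dividing, which is why sets of such genes are used as a readout of proliferation in tumors.

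The CHR and the CCAAT box were looked for in the promoters of these genes, as sequence that the array values did not use. A promoter here is the stretch from 250 bases before to 50 bases after an annotated transcription start in RefSeq (build GRCm38.p6), and 35 of the 44 genes had at least 1, for 37 promoters in all. The CHR was searched as TTTGAA or TTCGAA and the CCAAT box as CCAAT, on both strands, so that TTCAAA and ATTGG count as matches. A CHR was present in 29 of the 37 promoters (78.4%), against 19.2% of all 32851 promoters and 14.5% of the 13591 promoters whose gene was tested. A CCAAT box was present in 29 of 37 (78.4%), against 37.4% of all promoters and 37.9% of those of tested genes. Both stood together in 26 of 37 (70.3%), against 7.52% and 5.86%. An E2F motif, searched as TTTGGCGC, TTTCGCGC, TTTCCCGC or TTTGCCGC, was present in 2 of 37 (5.41%), against 2.26% and 3.38%. No match of one motif overlapped a match of another in these 37 promoters.

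The plot of motif positions shows where the matches lie. CCAAT boxes are almost all before the start, while many CHR matches lie just after it.

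**Figure D1:**
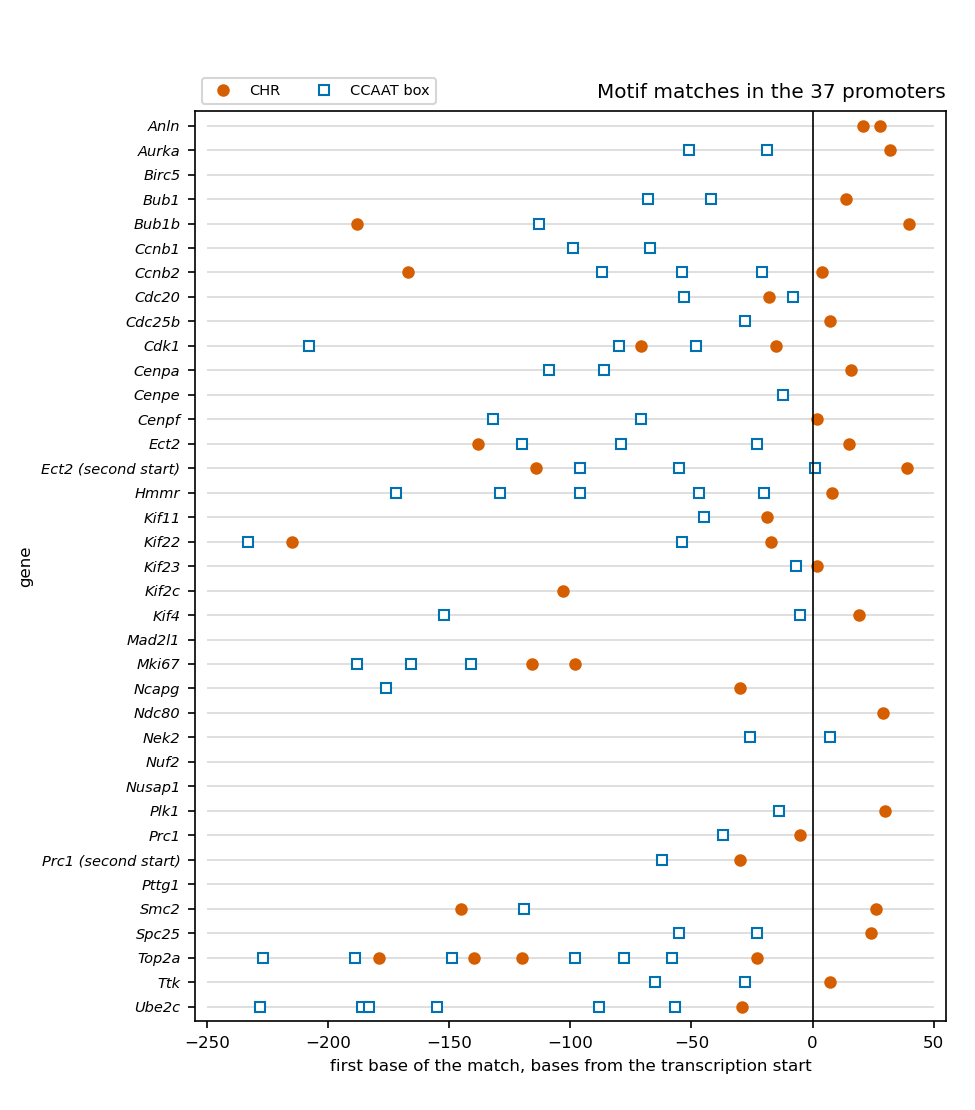
First base of each CHR match (filled circles) and CCAAT box match (open squares) on either strand, in bases from the annotated start, for the 37 promoters of 35 mitosis and spindle genes. The promoters of Birc5, Mad2l1, Nuf2, Nusap1 and Pttg1 show neither motif.

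The sequences below are the parts of 8 of these promoters that end at the base before the start and begin 10 bases before the first match. They were taken from the 13 of 35 genes with a CHR and a CCAAT box both before the start. In the printed parts the CHR comes first in Bub1b and Ccnb2 and a CCAAT box first in the other 6. Bub1b and Ccnb2 also hold a CHR after the start, at bases 41 and 5, which the printed parts leave out. That CHR follows their CCAAT boxes. CHR and CCAAT box matches are in capitals, each sequence is written 5′ to 3′ in the direction of transcription, and coordinates are GRCm38.p6.
Cdk1, chr10:69352913-69353130, minus strand: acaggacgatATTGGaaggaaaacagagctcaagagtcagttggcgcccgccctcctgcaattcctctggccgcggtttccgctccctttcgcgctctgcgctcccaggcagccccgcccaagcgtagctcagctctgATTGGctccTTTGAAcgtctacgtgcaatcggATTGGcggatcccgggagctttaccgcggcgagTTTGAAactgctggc
Cdc20, chr4:118437344-118437406, minus strand: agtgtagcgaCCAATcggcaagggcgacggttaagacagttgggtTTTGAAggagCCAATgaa
Kif11, chr19:37376327-37376381, plus strand: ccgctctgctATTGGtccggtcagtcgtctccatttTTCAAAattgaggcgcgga
Prc1, chr7:80294404-80294475, plus strand: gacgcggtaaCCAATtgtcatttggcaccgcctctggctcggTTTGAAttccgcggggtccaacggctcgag
Top2a, chr11:99024190-99024426, minus strand: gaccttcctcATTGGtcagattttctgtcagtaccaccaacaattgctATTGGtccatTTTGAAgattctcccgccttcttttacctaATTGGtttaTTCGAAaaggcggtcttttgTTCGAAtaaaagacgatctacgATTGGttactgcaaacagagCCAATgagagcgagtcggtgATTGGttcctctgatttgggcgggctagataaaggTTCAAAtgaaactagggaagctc
Mki67, chr7:135716380-135716577, minus strand: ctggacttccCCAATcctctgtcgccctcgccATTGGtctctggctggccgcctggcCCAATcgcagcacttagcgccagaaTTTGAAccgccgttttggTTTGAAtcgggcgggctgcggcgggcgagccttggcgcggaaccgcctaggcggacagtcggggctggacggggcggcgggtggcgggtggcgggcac
Bub1b, chr2:118598013-118598210, plus strand: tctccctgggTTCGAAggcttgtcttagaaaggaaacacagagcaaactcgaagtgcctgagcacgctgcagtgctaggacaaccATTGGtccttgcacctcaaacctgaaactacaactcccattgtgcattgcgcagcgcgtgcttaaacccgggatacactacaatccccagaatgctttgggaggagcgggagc
Ccnb2, chr9:70421555-70421731, minus strand: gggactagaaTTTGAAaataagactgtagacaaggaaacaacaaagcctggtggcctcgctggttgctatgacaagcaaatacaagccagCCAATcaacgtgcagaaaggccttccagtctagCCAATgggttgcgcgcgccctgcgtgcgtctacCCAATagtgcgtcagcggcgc

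Among these, Cdk1, Ccnb2, Top2a and Mki67 carry at least 3 CCAAT boxes each before the start, and Kif11 and Prc1 carry 1 CCAAT box and 1 CHR in a short stretch. The genes whose promoters held a CHR (26 genes tested) had a median log2 difference of -0.56 at 48 h, and those without one (8 genes) a median of -0.64. Pttg1, which moved the other way from the rest, is among the 8.

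Levels are given as log2 of the background-subtracted signal minus the 75th percentile of the same array, so that 0 marks a probe as bright as the 75th percentile, and 1 unit is a doubling. Differences between groups are log2 differences with the standard error of a limma fit over all 6 arrays, and a gene was called at a Benjamini-Hochberg adjusted p under 0.05 over all 24648 genes tested. Levels of different genes are not compared, since each probe has its own brightness.

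The first comparison sets cells given CSF-1 for 24 h against unstimulated cells. Of the 43 genes tested, 38 were lower than in unstimulated cells, with a median log2 difference of -0.29, while the median over all genes tested was 0.04 and 45.5% of them were lower. By limma, 6 genes fell, namely Spc24, Ect2, Ccna2, Hmmr, Kif11 and Cdc20, where 5.99% of all genes tested were called lower. Pttg1 rose, where 8.02% were called higher. At an unadjusted p under 0.05, 15 genes were lower, against 14.2% of all genes. Only Spc24 was also changed at least 2-fold, a rule that 1.83% of all genes met downward and 5.86% upward. Both stimulated arrays lay below both unstimulated arrays for 26 of the 43 genes, against 27.7% of all genes, and above them for Ndc80, Nusap1 and Pttg1, against 31.3%. In RNA from a whole culture, fewer cells in mitosis and less of these transcripts per cell cannot be told apart.

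The second comparison asks the same at 48 h, where more of these genes were called. Of the 43 genes, 42 were lower than in unstimulated cells, with a median log2 difference of -0.58, while the median over all genes was -0.04 and 55.2% of them were lower. By limma, 20 genes fell, against 7.38% of all genes called lower, and Pttg1 rose, against 6.58% called higher. The 20 include all 6 that fell at 24 h and, with them, Cdc25b, Mad2l1, Birc5, Nuf2, Plk1, Bub1b, Aurkb, Ccnb1, Cenpa, Ccnb2, Cdc25c, Foxm1, Kif22 and Bub1. At an unadjusted p under 0.05, 37 genes were lower, against 18.8% of all genes. Spc24 and Ccna2 were lower by at least 2-fold, against 1.83% of all genes, and Pttg1 was higher by at least 2-fold, against 4.66%. Both 48 h arrays lay below both unstimulated arrays for 40 of the 43 genes, against 35% of all genes, and above them for Pttg1 alone, against 23.8%. The genes whose arrays overlapped were Cenpe and Mki67. With arrays centered on the median instead, 14 genes fell at 48 h and 16 at 24 h, so the order of these counts turned. Of all 24648 genes, 1685 were then called lower at 48 h and 3706 at 24 h. The median of the 43 genes was still lower at 48 h, at -0.68 against -0.59 at 24 h. Bub1b, Aurkb, Ccnb1, Foxm1, Kif22 and Bub1 were then not called at 48 h.

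The comparisons at 24 h and 48 h share the unstimulated arrays, so the times were also compared directly. The median log2 difference of 48 h against 24 h was -0.32, against -0.08 over all genes tested, and 40 of the 43 genes were lower at 48 h, against 65.1% of all genes. Among the 38 genes lower than unstimulated at both times, 36 were further down at 48 h. None was called, nor was any of the 24648 genes (0%). At an unadjusted p under 0.05, 17 of these genes were lower at 48 h, against 9.24% of all genes, and Pttg1 was higher. Both 48 h arrays lay below both 24 h arrays for 34 of the 43, against 33.7% of all genes. With arrays centered on the median, 36 of the 43 were lower at 48 h than at 24 h, and 0 were lower at an unadjusted p under 0.05.

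**Figure D2:**
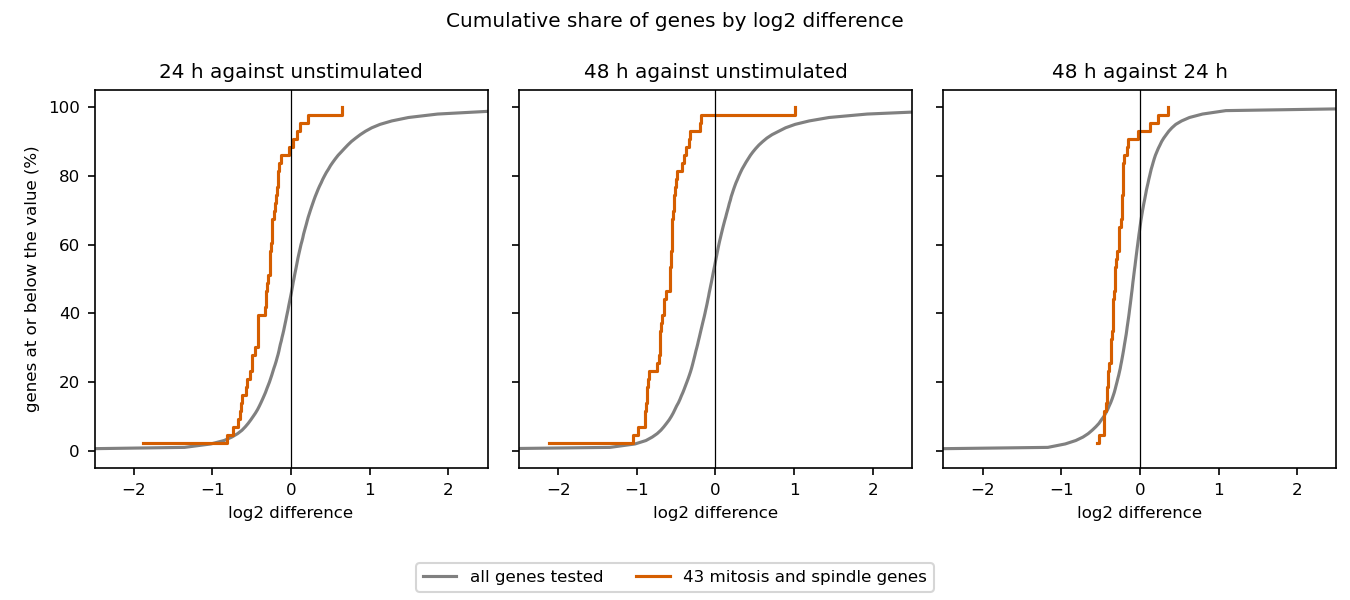
Cumulative share of genes (%) against log2 difference for the 43 mitosis and spindle genes (orange steps) and all 24648 genes tested (gray), in the 3 comparisons. The orange steps lie left of the gray curve over most of their length, with medians of -0.29, -0.58 and -0.32 against 0.04, -0.04 and -0.08.

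The arrays of a group were not alike over these genes. Relative to the unstimulated mean, the median over the 43 genes was -0.07 and 0.07 on the unstimulated arrays, -0.46 and -0.16 on the 24 h arrays, and -0.65 and -0.56 on the 48 h arrays. The second replicate was the higher one for 36 of 43 genes without CSF-1, for 38 of 43 at 24 h and for 31 of 43 at 48 h. The first 24 h array was also scanned on a slide of its own, the other 5 on 1 slide, and slide and sample cannot be told apart for it. Without that array no gene was called at 24 h and the median was -0.16. Without the second 24 h array no gene was called either, and the median was -0.46.

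Calls depended on having all 6 arrays. At 24 h, 1 gene fell without either unstimulated array and 2 without either 48 h array. Pttg1 was then called at 24 h only without a 48 h array. At 48 h, 2 genes fell without the first unstimulated array, 1 without the second, 5 without the first 48 h array, 1 without the second, and 14 without either 24 h array. At 48 h the number of all genes called lower moved too, from 1819 to between 222 and 963. The median at 48 h stayed between -0.70 and -0.55 with any 1 array left out, and at least 40 of the 43 genes remained lower.

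**Figure D3:**
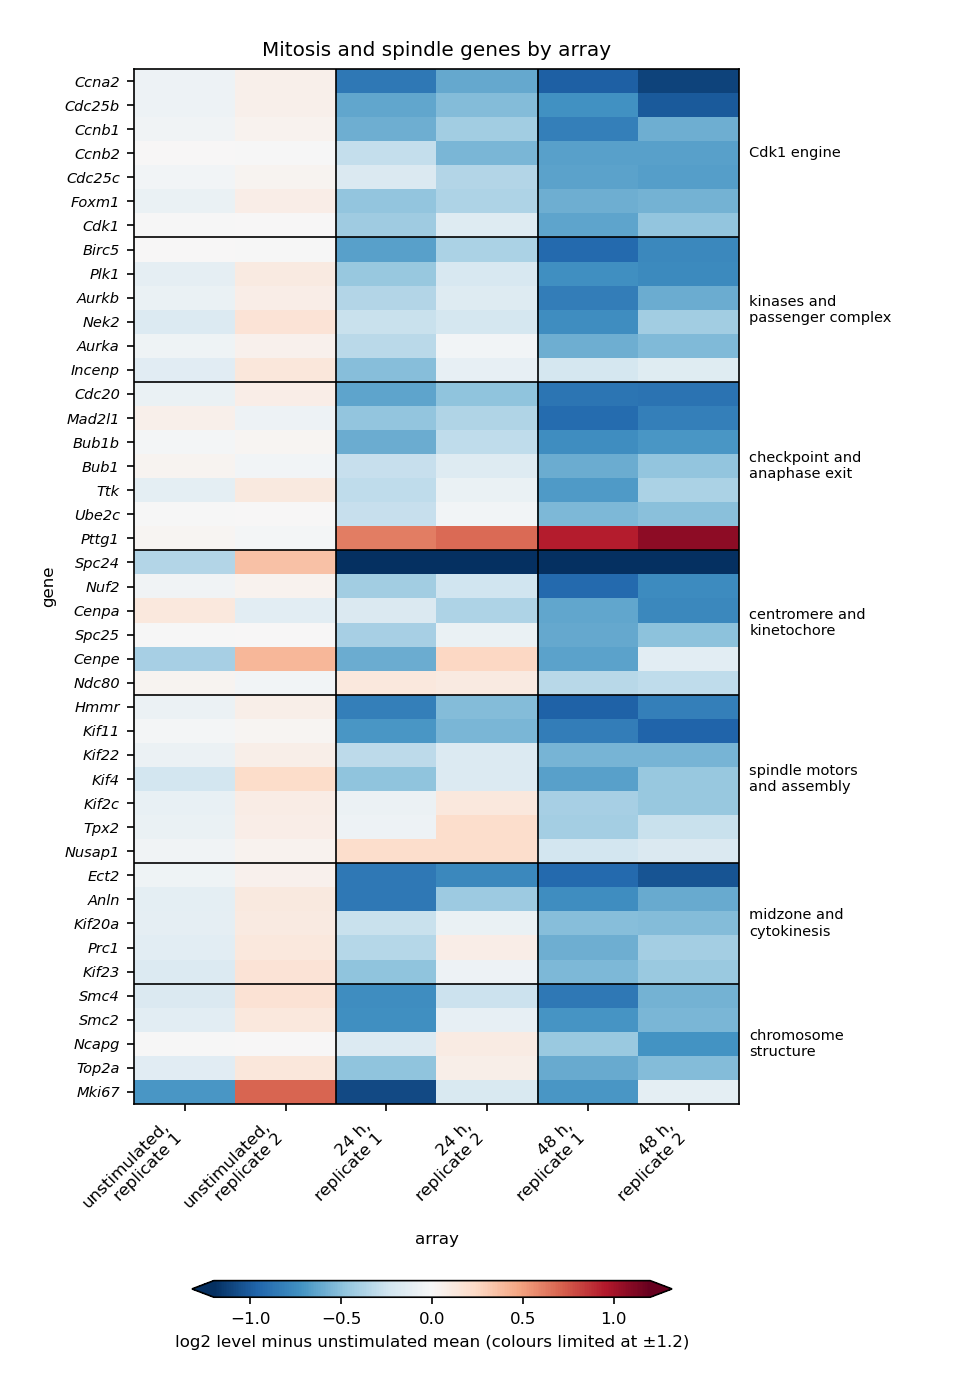
Log2 level of each gene tested on each of the 6 arrays minus its mean in unstimulated cells, grouped by role and ordered by the 48 h difference, with colors limited at 1.2 in either direction. Blue fills the 48 h columns in every row but Pttg1, and the second 24 h array is paler than the first in most rows.

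Cdk1, its cyclins, the Cdc25 phosphatases and Foxm1 went one way, since all 7 genes were lower at both times. At each time both stimulated arrays lay below both unstimulated arrays for each of them. The median log2 difference was -0.42 at 24 h and -0.65 at 48 h, and 1 gene fell at 24 h and 6 at 48 h. Ccna2 encodes cyclin A2, which partners Cdk2 and Cdk1 from S phase to early mitosis. Its levels were 4.04 and 4.17 in unstimulated cells, 3.25 and 3.50 at 24 h and 3.13 and 2.99 at 48 h. Every stimulated array was thus below every unstimulated one, and the fall was -0.74 ± 0.14 (SE, n = 2 arrays per group, limma adjusted p = 0.0287) at 24 h and -1.05 ± 0.14 (limma adjusted p = 0.0122) at 48 h, or 51.6% less signal. Its probe lies at chr3:36463978-36464037 on the minus strand of build mm9, as the array annotation gives it.

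Cdc25b, a phosphatase that switches on Cdk1, stood at 2.54 and 2.66 in unstimulated cells, 1.98 and 2.08 at 24 h, and 1.87 and 1.59 at 48 h. The 3 groups did not overlap, and its difference was -0.57 at 24 h (limma adjusted p = 0.0557, not called) and -0.87 at 48 h (limma adjusted p = 0.0208). Ccnb1, cyclin B1, had levels of 3.98 and 4.07, then 3.44 and 3.60, then 3.20 and 3.43. It was not called at 24 h (-0.50 ± 0.14, limma adjusted p = 0.0677) and fell by 0.70 ± 0.14 on the log2 scale at 48 h (limma adjusted p = 0.0308). Foxm1, the transcription factor that drives many of these genes, gave 2.88 and 3.04, then 2.49 and 2.59, then 2.37 and 2.40. It fell by 0.58 ± 0.12 on the log2 scale at 48 h (limma adjusted p = 0.0336), after a difference of -0.42 at 24 h that was not called. Ccnb2 and Cdc25c also fell at 48 h, by 0.65 on the log2 scale each.

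Cdk1 itself was the exception among the 7 in not being called at 48 h. Its levels were 4.17 and 4.18 in unstimulated cells, 3.74 and 4.02 at 24 h and 3.54 and 3.70 at 48 h. The groups did not overlap, and the differences were -0.29 ± 0.14 (limma adjusted p = 0.233) and -0.55 ± 0.14 (limma adjusted p = 0.059).

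The mitotic kinases and the chromosomal passenger complex, which corrects wrong attachments of chromosomes, had medians of -0.28 at 24 h and -0.64 at 48 h over 6 genes. None was called at 24 h, and Birc5, Plk1 and Aurkb fell at 48 h. Birc5, survivin, a passenger subunit, stood at 6.28 and 6.26 in unstimulated cells, 5.62 and 5.89 at 24 h and 5.34 and 5.49 at 48 h. The step down at 48 h was -0.85 ± 0.14 (limma adjusted p = 0.0208), with no overlap between groups. Plk1, the Polo kinase of mitotic entry, had levels of 4.30 and 4.52, then 3.95 and 4.22, then 3.67 and 3.65, and the 48 h arrays were below all others. It fell by 0.75 ± 0.15 on the log2 scale at 48 h (limma adjusted p = 0.0317). Aurkb, the kinase of the passenger complex, gave -1.58 and -1.43, then -1.85 and -1.66, then -2.33 and -2.10. It fell by 0.71 ± 0.14 on the log2 scale (limma adjusted p = 0.0348).

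The members of this group that were not called differed among themselves. Aurka, which acts at spindle poles, and Nek2, a centrosome kinase, had 48 h differences of -0.55 and -0.58 (limma adjusted p = 0.0561 and 0.0876). Incenp, the scaffold of the passenger complex, had a 48 h difference of -0.18 ± 0.18 (limma adjusted p = 0.568), with an interval from -0.64 to 0.28. The falls of Birc5 and Aurkb thus stand beside a value for Incenp that its error cannot separate from 0.

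Genes of the spindle checkpoint and of the exit from it were lower in 6 of 7 cases at both times, with medians of -0.21 and -0.54. Cdc20, which activates the anaphase-promoting complex, had levels of 5.92 and 6.07 in unstimulated cells, 5.36 and 5.51 at 24 h, and 5.12 and 5.10 at 48 h. Its groups did not overlap, and it fell by 0.56 ± 0.12 on the log2 scale at 24 h (limma adjusted p = 0.0397) and by 0.88 ± 0.12 at 48 h (limma adjusted p = 0.0131). Mad2l1, the checkpoint protein that holds Cdc20 back, gave 4.74 and 4.62, then 4.21 and 4.32, then 3.76 and 3.86. It moved in the same steps and was called at 48 h (-0.87 ± 0.12, limma adjusted p = 0.0125) but not at 24 h (-0.42, limma adjusted p = 0.072). Bub1, a checkpoint kinase at the kinetochore, stood at 2.15 and 2.09, then 1.85 and 1.96, then 1.53 and 1.64, and fell by 0.54 ± 0.11 on the log2 scale at 48 h (limma adjusted p = 0.0387). Bub1b, BubR1, also fell at 48 h by 0.72 on that scale. Ttk, the Mps1 kinase, and Ube2c, the ubiquitin-conjugating enzyme of the complex, were not called, with 48 h differences of -0.53 and -0.52.

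Pttg1, securin, the inhibitor of separase that Cdc20 marks for destruction, was the only gene of the 43 that rose. Its levels were 3.44 and 3.40 in unstimulated cells, 4.03 and 4.10 at 24 h and 4.36 and 4.49 at 48 h. The 3 groups were far apart relative to their spread, and the differences were 0.65 ± 0.11 (limma adjusted p = 0.0225) at 24 h and 1.01 ± 0.11 (limma adjusted p = 0.00744) at 48 h, or 2.01 times the unstimulated signal. A second probe for it was dim but well above background on all arrays, at -2.74 and -2.79, then -2.26 and -2.45, then -2.51 and -2.32. This probe too was higher on every stimulated array, with smaller differences of 0.41 at 24 h and 0.35 at 48 h. It showed no further rise from 24 h to 48 h (-0.06). The probe that stood for the gene lies at chr11:43233801-43233860 and the other at chr11:43234562-43234621 of build mm9. With each array centered on its median instead of the 75th percentile, the 24 h difference was 0.35 and was not called (limma adjusted p = 0.196), and without the second 48 h array the 48 h difference of 0.94 was no longer called.

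**Figure D4:**
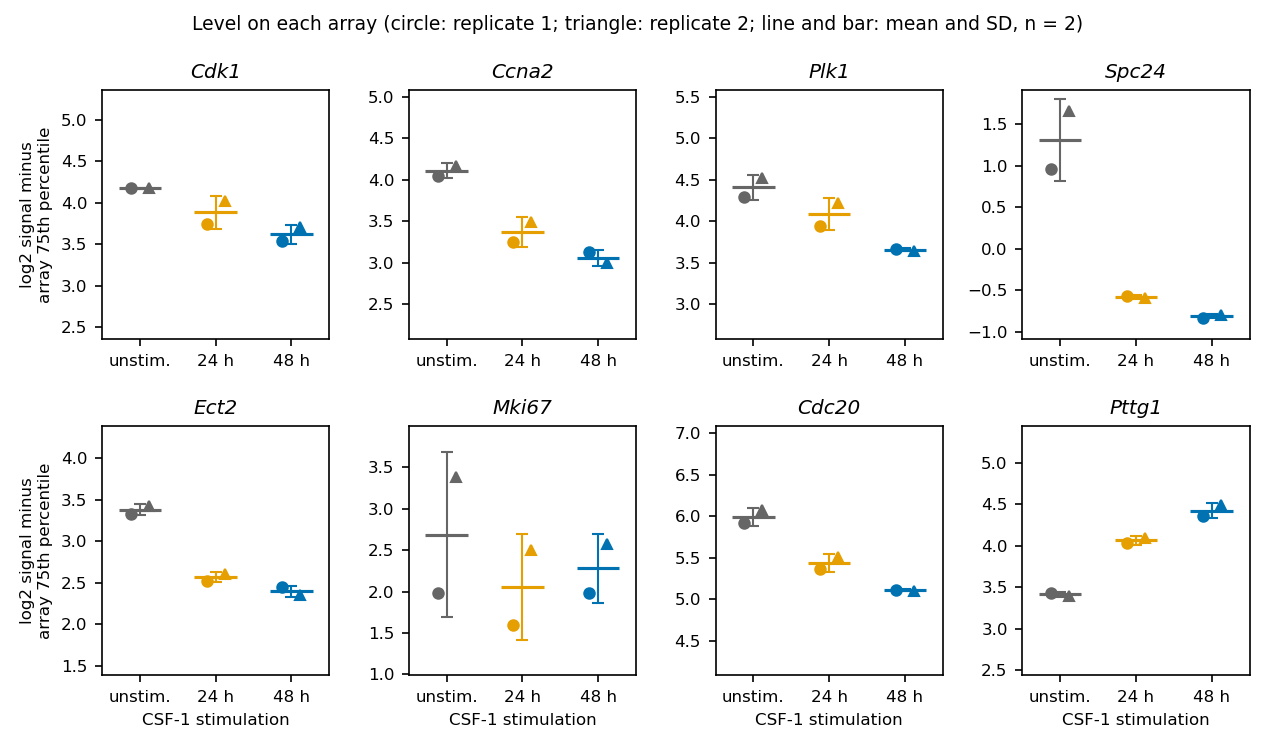
Level of 8 genes (log2 signal relative to the 75th percentile) on each array, with the mean and SD of each group (n = 2) and axes of equal length. Pttg1 rises from about 3.4 to above 4.3, Spc24 drops from 0.96 and 1.66 to below -0.5, and Mki67 replicates lie further apart than its groups.

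Centromere and kinetochore genes held the gene with the greatest decrease of the 43 at both times. Spc24, a subunit of the Ndc80 complex that ties kinetochores to microtubules, had levels of 0.96 and 1.66 in unstimulated cells, -0.56 and -0.59 at 24 h and -0.83 and -0.79 at 48 h. The unstimulated arrays were not close to each other, and still both lay well above all stimulated arrays. The fall was -1.89 ± 0.24 (limma adjusted p = 0.0102) at 24 h and -2.12 ± 0.24 (limma adjusted p = 0.00764) at 48 h, which leaves 0.23 times the unstimulated signal. Spc24 kept its 48 h call with any 1 array left out, and its 24 h call was lost without either 24 h array. It had 1 probe, at chr9:21561562-21561621 on the minus strand of build mm9, so that no other probe could be set beside it.

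The other subunits of the same complex had smaller measured differences. Nuf2 stood at 0.97 and 1.06, then 0.60 and 0.78, then 0.09 and 0.26, and fell by 0.85 ± 0.13 on the log2 scale at 48 h (limma adjusted p = 0.0177). Spc25 had a 48 h difference of -0.55 ± 0.14 (limma adjusted p = 0.0626). Ndc80, which binds the microtubule, had levels of -0.06 and -0.13 in unstimulated cells, 0.04 and 0.01 at 24 h and -0.42 and -0.40 at 48 h. Its 24 h arrays were the highest and its 48 h arrays the lowest, with differences of 0.12 ± 0.10 (limma adjusted p = 0.506) and -0.32 ± 0.10 (limma adjusted p = 0.104), and median centering turned the 24 h value to -0.18. Between these subunits of 1 complex the measured 48 h differences therefore ran from -0.32 to -2.12, and differences between genes were not tested.

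Cenpa, the histone H3 variant that marks centromeres, gave 3.40 and 3.16, then 3.10 and 2.91, then 2.66 and 2.51, without overlap. It fell by 0.70 ± 0.15 on the log2 scale at 48 h (limma adjusted p = 0.0377). Cenpe, a kinetochore motor, gave 2.63 and 3.42, then 2.43 and 3.28, then 2.38 and 2.90. The second replicate was the higher in each group and the groups overlapped, while within each replicate number both stimulated arrays were below the unstimulated one, and its 48 h difference was -0.38 ± 0.40 (limma adjusted p = 0.58).

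Spindle motors and assembly factors were mixed at 24 h, with 4 of 7 lower, and all lower at 48 h, with medians of -0.24 and -0.55. Kif11, the Eg5 motor that pushes spindle poles apart, had levels of 0.29 and 0.33 in unstimulated cells, -0.39 and -0.24 at 24 h and -0.52 and -0.65 at 48 h. The groups did not overlap, and it fell by 0.63 ± 0.12 on the log2 scale at 24 h (limma adjusted p = 0.0285) and by 0.90 ± 0.12 at 48 h (limma adjusted p = 0.012). Hmmr, a spindle assembly factor that also binds hyaluronan, gave 2.34 and 2.48, then 1.60 and 1.89, then 1.44 and 1.59. It fell by 0.67 ± 0.15 on the log2 scale at 24 h (limma adjusted p = 0.0424) and by 0.90 ± 0.15 at 48 h (limma adjusted p = 0.0212). Kif22, a motor on chromosome arms, also fell at 48 h, by 0.56 on the log2 scale.

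Kif2c, Tpx2 and Nusap1, which act on microtubule ends and on spindle assembly, were the other genes above 0 at 24 h, with differences of 0.03, 0.07 and 0.21, and none was called. At 48 h their differences were -0.43, -0.33 and -0.20, again not called. Nusap1 had levels of 1.70 and 1.78 in unstimulated cells, 1.95 on both 24 h arrays and 1.52 and 1.57 at 48 h, so that like Ndc80 it was highest at 24 h and lowest at 48 h. Kif4, a motor of chromosome arms and midzone, had a 48 h difference of -0.55 ± 0.20 (limma adjusted p = 0.137).

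At the midzone and in cytokinesis all 5 genes were lower at both times, with medians of -0.27 and -0.52. Ect2, the exchange factor that switches on RhoA at the cleavage furrow, had levels of 3.33 and 3.43 in unstimulated cells, 2.52 and 2.61 at 24 h and 2.44 and 2.35 at 48 h. Replicates were close and groups did not overlap, and it fell by 0.81 ± 0.11 on the log2 scale at 24 h (limma adjusted p = 0.0128) and by 0.98 ± 0.11 at 48 h (limma adjusted p = 0.00818). Most of its decrease was thus present at 24 h, with a further difference of -0.17 ± 0.11 (limma adjusted p = 0.556). Anln, anillin, which bundles the contractile ring, had the same shape with -0.65 and -0.67 but a wider error of 0.18, and was not called. Prc1, which bundles midzone microtubules, stood at 4.52 and 4.76, then 4.30 and 4.72, then 4.05 and 4.23. Its 24 h arrays overlapped the unstimulated ones, the 24 h difference was -0.13 ± 0.19 and changed sign to 0.0814 without the first 24 h array, and the 48 h difference of -0.50 ± 0.19 was not called (limma adjusted p = 0.145). The kinesins Kif20a and Kif23 had 48 h differences of -0.52 and -0.49, not called.

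Genes of chromosome structure were lower at both times in 5 of 5 cases, with medians of -0.42 and -0.58, and none was called. Top2a, the topoisomerase that untangles sister chromatids, had levels of 2.46 and 2.74, then 2.11 and 2.67, then 2.0 and 2.08. Only the 48 h arrays were clear of the unstimulated ones, with a difference of -0.56 ± 0.21 (limma adjusted p = 0.149), and the 24 h value of -0.21 became 0.0678 without the first 24 h array. The condensin subunits Smc2, Smc4 and Ncapg, which compact chromosomes, had 48 h differences of -0.63, -0.71 and -0.58.

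Mki67, the gene of the proliferation marker Ki-67, could not be judged. Its levels were 1.99 and 3.39 in unstimulated cells, 1.60 and 2.50 at 24 h and 1.99 and 2.57 at 48 h. The second replicate was the higher in each group and the groups overlapped, with differences of -0.63 ± 0.55 (limma adjusted p = 0.497) and -0.41 ± 0.55 (limma adjusted p = 0.675). Without the second unstimulated array they were 0.0675 and 0.29. A second Mki67 probe showed the same gap, at 1.57 and 2.87 in unstimulated cells.

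**Figure D5:**
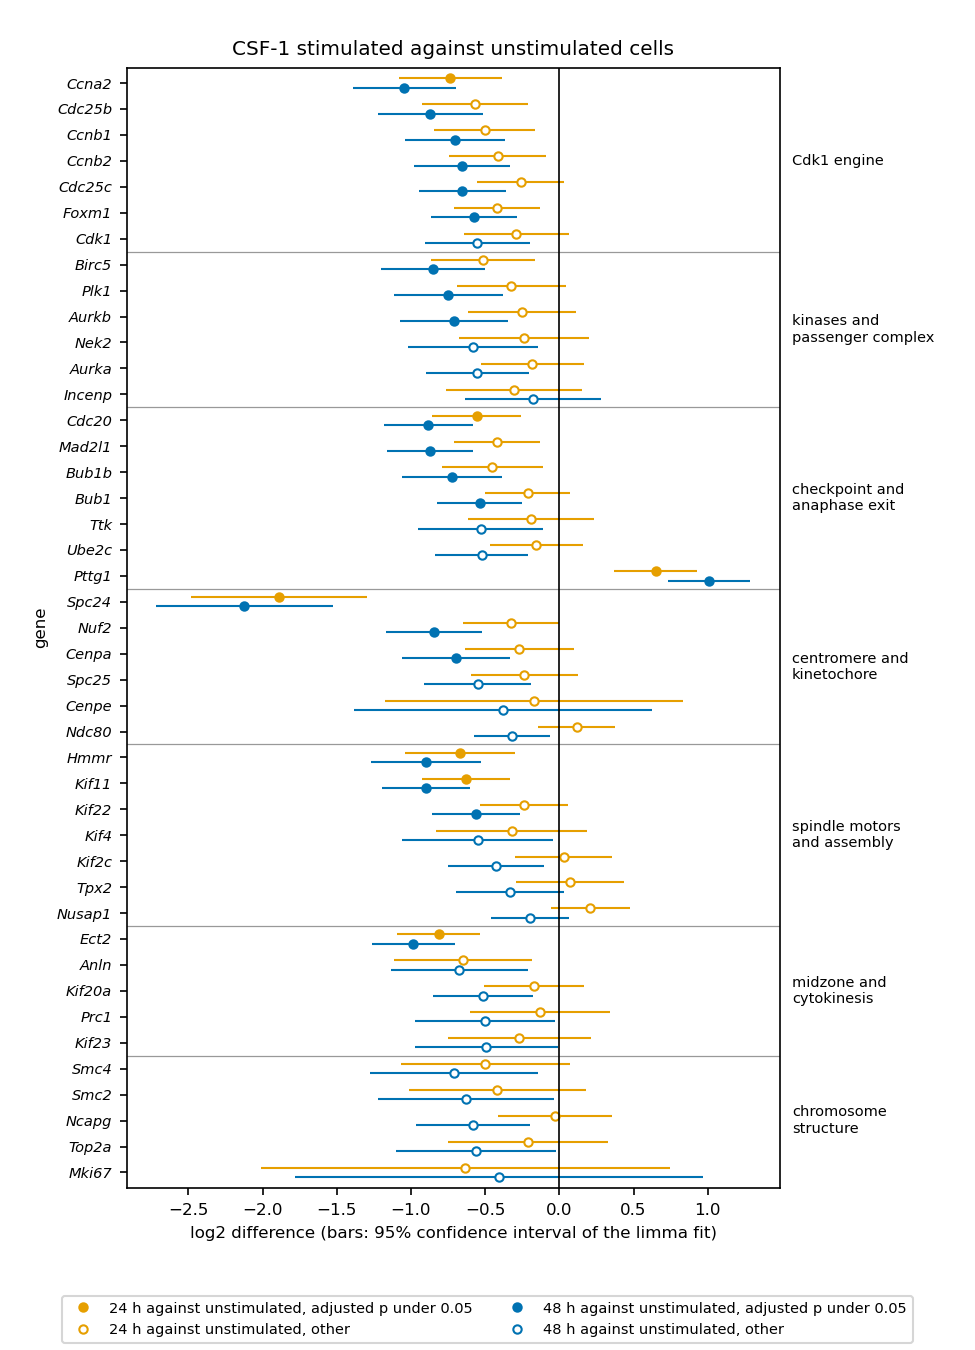
Log2 difference from unstimulated cells at 24 h (orange) and 48 h (blue) for the 43 genes tested, by role, with 95% confidence intervals of the limma fit and filled points where the adjusted p is under 0.05. The 48 h point lies left of the 24 h point in 40 of 43 rows, and Pttg1 is the only gene right of 0 at 48 h.

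Further probes allowed a check on some of these genes. Of 61 probes for these genes, 15 besides those used, for 11 genes, were well above background on all arrays. The sign of their difference matched that of the probe used for 13 of 15 at 24 h and for 15 of 15 at 48 h. Sizes differed by up to 0.43 on the log2 scale at 24 h and by up to 0.66 at 48 h.

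Around these genes, 74 further mitotic genes that were tested had medians of -0.28 at 24 h and -0.51 at 48 h, and 13 fell at 24 h and 29 at 48 h by limma, where 5.99% and 7.38% of all genes did. Cenpm, Cenpk and Cenpp, subunits of the inner kinetochore, led them at 48 h with -1.45, -0.98 and -0.97. Among 36 genes of replication licensing and S phase, all 36 were lower at 24 h and 34 at 48 h, with medians of -0.40 and -0.42, and 11 and 12 fell. Tk1, the thymidine kinase of S phase, fell by 1.07 on the log2 scale at 24 h and by 1.08 at 48 h. The 48 h against 24 h median was -0.05 for the S phase genes, against -0.32 for the 43 mitosis and spindle genes, and the difference between these lists was not tested.

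Regulators of this program were mixed. Of 19 subunits of the DREAM and B-Myb complexes and E2F factors, 6 fell at 24 h and 5 at 48 h, where 5.99% and 7.38% of all genes did. Their medians were -0.23 and -0.24, while 5 were above 0 at 24 h and 2 at 48 h. E2f7, E2f4 and Tfdp1 led at 48 h with -0.92, -0.80 and -0.77. Of 15 subunits and partners of the anaphase-promoting complex, which Cdc20 activates, 3 fell at 24 h and 2 at 48 h, with medians of -0.17 and -0.31, and Anapc1 was at -0.73 and -0.74. For the genes of the anaphase-promoting complex and for the cohesin genes the counts of called genes are too small to set apart from the 5.99% and 7.38% of all genes. Of 10 cohesin genes, whose rings securin protects, Pds5b alone fell, at 24 h, by 0.59 on the log2 scale, and none fell at 48 h. At an unadjusted p under 0.05, 7 of the 10 were lower at 48 h, against 18.8% of all genes. Among 6 inhibitors of cyclin-dependent kinases, Cdkn1a, p21, had levels of -3.93 and -3.38 in unstimulated cells, 0.75 and 1.09 at 24 h and -0.19 and -0.07 at 48 h. It rose by 4.57 ± 0.22 on the log2 scale at 24 h (limma adjusted p = 0.00145) and by 3.52 ± 0.22 at 48 h (limma adjusted p = 0.00183). Its probe was well above background on all 6 arrays but dim in unstimulated cells. The size of its rise thus rests on dim signals. Cdkn2c, p18, rose at 24 h by 0.65 on the log2 scale. The part of these regulators in the values of the mitotic genes was not tested.

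The cells were checked against their labels. Csf1r, the added receptor, had levels between 4.88 and 5.34 on all 6 arrays and was not called at either time (0.22 and -0.07). Of 8 epithelial markers, Krt8, Cldn4 and Cldn7 were well above background on all arrays and Cdh1 on none, while all 10 fibroblast and mesenchymal markers were. At 48 h Krt8 rose by 1.98 on the log2 scale and Krt7 fell by 1.97 on the log2 scale. Krt7 was well above background on only 4 of the 6 arrays, with levels of -2.58 and -2.32 in unstimulated cells and -4.60 and -4.24 at 48 h. The size of its fall thus rests on dim signals. Among all genes tested, 5.99% were called lower and 8.02% higher at 24 h, and 7.38% and 6.58% at 48 h. Of the 10 mesenchymal markers 5 fell and 2 rose at 24 h, and 4 fell and 1 rose at 48 h, with Col1a1, Col1a2, Col3a1 and Pdgfrb lower and Dcn higher at both times. Their summed signal, in units of the 75th percentile of the array, was 956 and 975 in unstimulated cells, then 634 and 646, then 667 and 642, so that it was lower at both times, as the mitotic genes were. Of 10 macrophage markers found, Lyz2 was well above background on no array, Mrc1 and Cd14 rose at both times, and the summed signal of the 10 in the same units was 40.0 to 44.7 in unstimulated cells, 33.1 to 40.4 at 24 h and 26.4 to 35.7 at 48 h. That sum is mostly the 1 probe of Itgam, at -0.43 and -0.65 and not called, and 6 of the 7 macrophage markers tested were above 0 at 24 h, with a median of 0.57. The part of any other cell in the mitotic values was not tested.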

How the data were processed

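Scanner output of Agilent Feature Extraction 11.0.1 was deposited for every array, and its background-subtracted spot intensity, which the authors had not scaled between arrays, was used here. The authors deposited processed log2 values too, whose normalization is not given in the sources used here and whose centring per probe is unknown. Their differences from the first array were set beside those used here, after the median offset of each array was removed. Of these, 99.8% lay within 0.05, which leaves the scaling between arrays uncompared. The processed values served as an alternative. Outlier spots were left out, repeated spots averaged, and log2 intensities set relative to the 75th percentile of the array; 303 probes with every spot flagged on some array were dropped. Between 58.7% and 72.0% of 59305 spots per array were well above background and 0 were saturated.

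Groups came from the sample labels. One limma 3.58.1 fit in R 4.3.3 (data.table, version 1.17.8) over the 6 arrays, with 3 residual and 2.39 prior degrees of freedom, gave 2-sided p-values, adjusted by Benjamini-Hochberg. With 2 arrays per group, an exact permutation test cannot go below p = 0.333, and the number of arrays limits the precision. Motifs were searched with Python 3.11.15. The code was tested on simulated data. Genes, lists and tests were chosen with earlier results of these data known. Values are given array by array for up to 12 called genes per comparison, by size of difference, and for 13 genes named for their roles. Other lists are given by counts, medians and at most 3 called members. Alternatives were other background corrections, scalings, filters, probe rules, the methods' t-test, blocks for slide and replicate, and leaving out each array. A list of prostate markers is not reported here.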

Additional observations from a re-analysis of the deposited data

Results flagged for a closer look

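Ndc80 and Nusap1 had differences of opposite sign at 24 h and 48 h, none of which was called. Both 24 h arrays lay above and both 48 h arrays below the unstimulated ones for each of them. The difference between 48 h and 24 h was itself tested by limma, and was -0.44 for Ndc80 (adjusted p = 0.195) and -0.41 for Nusap1 (adjusted p = 0.216), neither called. With arrays centered on the median, the 24 h value of Ndc80 was -0.18. With 2 arrays per group, no array could be judged as an outlier.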

How the results depend on the processing

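Centring arrays on the median gave 16 genes lower and 0 higher at 24 h, with a median of -0.59, and a 48 h against 24 h median of -0.12; it moved the median of all genes to -0.26, -0.14 and 0.12 in the 3 comparisons, and all-gene calls at 24 h from 1476 lower and 1977 higher to 3706 and 1148. Relative to all genes the 43 stood at -0.33, -0.54 and -0.24 under either scaling. This had to be so, since each of these scalings shifts all genes of an array alike. Under quantile normalization, which does not, they stood at -0.27, -0.50 and -0.28. Ndc80 turned to -0.18 at 24 h under median centring. Quantile normalization gave 4 genes lower at 24 h and 16 at 48 h, where 1353 and 1539 of all 24648 genes were called lower. Of the 28 calls at the 2 times, 21 were kept under median centring and 22 under quantile normalization. At 24 h, normexp gave 14 genes lower with the 75th percentile and 10 with quantile normalization. All-gene calls lower rose too, to 2340 and 2074. Fitting the compared groups alone gave 2 genes lower at 24 h, where 861 of all genes were called lower. Without a filter on dim probes 1 fell and 0 rose at 24 h, and 2 fell at 48 h. Of the 36028 genes then tested, 352 were called lower and 969 higher at 24 h, and 210 lower at 48 h. The methods' t-test called 0 in either direction at both times after adjustment, and 9 and 28 lower before it. Slide as a block, the same fit as leaving out the first 24 h array, called 0 in either direction at 24 h, with a median of -0.16, and turned Prc1 to 0.0814 and Top2a to 0.0678. With 1 array left out, the lone array being assumed to vary like the others, genes called at 24 h ran from 0 to 2 lower and 0 to 1 higher, with medians from -0.46 to -0.16, and at 48 h from 1 to 14 lower and 0 to 1 higher. Prc1 at 24 h ran from -0.34 to 0.0814, Top2a from -0.49 to 0.0678, and Mki67 from -1.33 to 0.0675 at 24 h and -1.11 to 0.29 at 48 h. The main fit did not pair arrays by the labels' replicate numbers. Deviations of the replicates correlated at 0.128, 0.0943 and 0.199 across all genes, not all above the limit of 0.1 used here. Over the 43 genes they correlated at 0.656, 0.614 and 0.588, so the replicate gap of these genes recurred across groups, and the main fit counts it as error. With a replicate block 9 genes fell at 24 h and 29 at 48 h, and all 28 calls were kept. Of all 24648 genes, 1558 and 2126 were then called lower. The causes of these shifts were not tested.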
